A study of Mus musculus with 6 samples.

Results

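The genes described here are 9 transcription factor genes of cranial neural crest and mesenchyme: Tfap2a, Tfap2b, Tfap2c, Twist1, Twist2, Snai1, Snai2, Zeb1 and Zeb2. They were taken by gene symbol from the 21827 genes listed for each library, and each symbol was found on 1 row. Polyadenylated RNA was sequenced from single mouse embryos at E10.75 (midgestation), using the dissected distal mandible, which is the front end of the forming lower jaw. The mutant label stands for embryos homozygous for floxed Msx1, and the control label for embryos heterozygous for it. Embryos of both labels were also homozygous for floxed Msx2 and carried Hand2-Cre with 1 copy of the Rosa26 mTmG reporter, which turns cells from red to green after recombination. The series has 3 libraries of each label, 1 of each from each of 3 litters. Every embryo thus carried floxed alleles of both Msx genes, and neither label stands for wild type. Cre acted only where Hand2 regulatory sequence is active. The labels describe dissection of green tissue and name no cell sorting, so cells without recombination can be present.

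Neural crest cells arise at the border of the neural plate, leave the epithelium by an epithelial-to-mesenchymal transition, and fill the pharyngeal arches, where they form most of the jaw skeleton. AP-2 proteins, encoded by the Tfap2 genes, bind GC-rich sites as dimers and act both in the crest and in the overlying surface ectoderm. Twist proteins are basic helix-loop-helix factors that pair with E proteins or Hand proteins and help crest cells take a mesenchymal fate. Snail and Zeb proteins are zinc-finger repressors that bind E-boxes, a class of short DNA motif, and silence epithelial genes such as Cdh1, which encodes E-cadherin.

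Msx1, the homeobox gene whose floxed dose distinguishes the labels, followed the labels in litter 1 only. It was at 1.90, 78.8 and 73.3 TPM (a transcript abundance scaled for gene length and to a fixed total per library) in litters 1, 2 and 3 under the mutant label, and at 84.1, 2.61 and 1.99 TPM under the control label. Each litter therefore held 1 library with Msx1 under 10 TPM and 1 with Msx1 over 50 TPM. These are called the Msx1-low and the Msx1-high library below. The Msx1-low library was labelled mutant in litter 1 and control in litters 2 and 3. Differences between these littermates are given per litter without a test, because a measured value and not a label tells the libraries apart. Directions drawn from the labels go against Msx1 in 4 of the 6 libraries. Whether the labels of these 4 libraries were exchanged cannot be told from the files. The authors' deposited table, with Msx1 at a log2 fold change of -5.19, does not divide the libraries as the labels do.

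All 9 genes were detected in every library, and all passed the requirement of at least 1 TPM in at least 3 libraries that 12152 genes met. Mandibular mesenchyme markers, summed over 8 genes, were at 999 to 1087 TPM. The 8 include Hand2 and Twist1, so this sum is not independent of Twist1. Epithelial markers, summed over 10 genes, were at 126 to 147 TPM. The 8 endothelial markers summed to 95.3 to 113 TPM. Muscle, neuron, glial and macrophage markers each summed to 16.3 TPM or less in every library, and Msc, Myog, Neurod1, Foxd3 and Aif1 were each listed at 0 in at least 1 library. Red blood cell markers summed to 22542 TPM in the mutant-labelled embryo of litter 1, against 6878 to 9723 TPM elsewhere. The mitochondrial share of listed TPM was 8.03% in the control-labelled embryo of litter 1, against 6.02% to 6.51% elsewhere. In bulk tissue, fewer cells of a type and less RNA per cell cannot be told apart.

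The 9 genes spanned a wide range of levels on the TPM scale, with Twist1 far above the others. Twist1 averaged 176 ± 10.5 TPM (SD, n = 6 libraries), higher than 95.9% of the tested genes. Twist2 followed at 57.0 ± 6.12 TPM and Snai2 at 48.2 ± 6.87 TPM. Tfap2a and Snai1 averaged 20.01 ± 2.43 and 19.1 ± 3.07 TPM, Zeb1 15.7 ± 2.53 TPM, Zeb2 13.3 ± 1.53 TPM and Tfap2b 13.2 ± 1.46 TPM. Tfap2c was lowest, at 7.96 ± 1.53 TPM (SD, n = 6 libraries for each gene). Neighbours in this order separated in every library at 3 steps only: Twist1 above Twist2, Snai2 above Tfap2a, and Tfap2b above Tfap2c. The ranges of the other neighbours overlapped. The remaining relatives of these families were near or at 0: Tfap2d and Scrt2 were listed at 0 in all libraries, and Tfap2e, Snai3 and Scrt1 did not exceed 0.223 TPM.

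**Figure D1:**
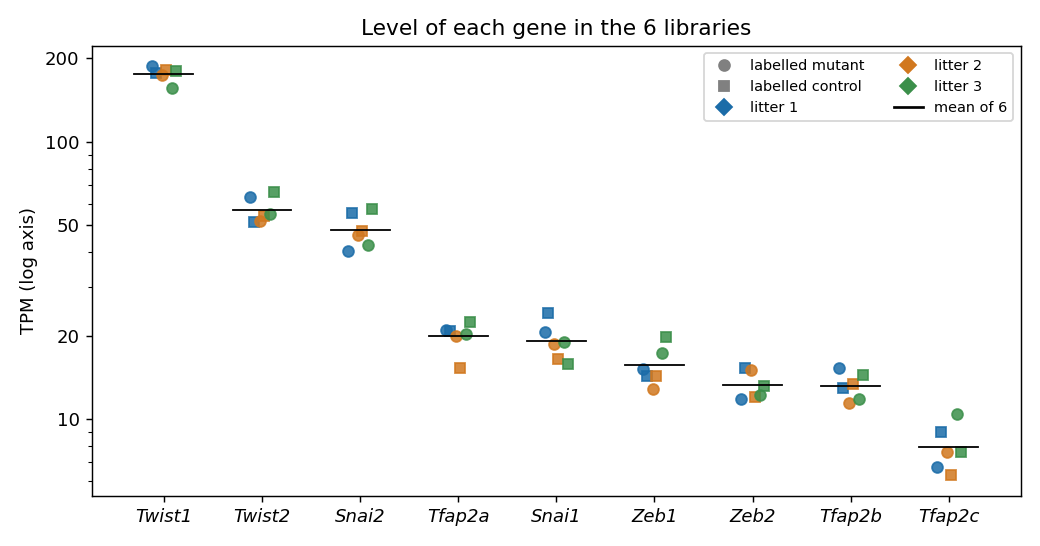
TPM on a log axis for each of the 9 genes, ordered by mean. Circles are libraries labelled mutant, squares libraries labelled control, colours are litters and black lines are the mean of 6 libraries. Twist1 stands at 157 to 187 TPM, above every other gene, and Tfap2c at 6.30 to 10.5 TPM, below every other gene.

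The level of Twist1 was also the steadiest. Its coefficient of variation over the 6 libraries was 5.95%, against a median of 11.55% over the 8895 tested genes with a mean of at least 5 TPM. Most of those genes are at lower levels than Twist1, and no background matched for level was computed, so the part of level in these spreads was not tested. Tfap2c varied most, with a coefficient of variation of 19.2%, followed by Zeb1 at 16.1% and Snai1 at 16.0%. The other genes lay between 10.73% and 14.2%. The highest library exceeded the lowest 1.19-fold for Twist1 and 1.66-fold for Tfap2c. The number of reads per library is unknown. Base means in the authors' deposited table, the average normalised count per library, were 1413 for Twist1, 170 for Snai1 and 159 for Tfap2c.

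Among the AP-2 genes, Tfap2b was higher and Tfap2c lower in the Msx1-low library of every litter, while Tfap2a had no common direction. Tfap2b, which acts with Tfap2a in crest-derived jaw tissue, was at 15.3, 13.4 and 14.4 TPM in the Msx1-low libraries of litters 1, 2 and 3, against 13.0, 11.5 and 11.9 TPM in their Msx1-high littermates. The Msx1-low values were all above the Msx1-high values, by 1.18-fold, 1.17-fold and 1.21-fold within litters. Tfap2c, an AP-2 gene of surface ectoderm and early germ cells as well as crest, was at 6.76, 6.30 and 7.64 TPM in the Msx1-low libraries, against 9.0, 7.62 and 10.5 TPM in the Msx1-high littermates. The Msx1-low library had 0.751, 0.826 and 0.731 times the Tfap2c level of its littermate, although the highest Msx1-low value just passed the lowest Msx1-high value. Tfap2a, whose loss in mice leaves the face and neural tube open, was at 20.9, 15.4 and 22.5 TPM in the Msx1-low libraries, against 20.8, 20.1 and 20.3 TPM in the Msx1-high littermates. Only the litter 2 pair of Tfap2a differed by more than 1.2-fold, with the Msx1-low library lower.

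Because Tfap2b and Tfap2c went opposite ways, their ratio must by arithmetic differ more between littermates than either gene. It is given as a description and adds no separate evidence. The level of Tfap2b was 2.26, 2.12 and 1.89 times that of Tfap2c in the Msx1-low libraries of litters 1, 2 and 3, against 1.44, 1.504 and 1.14 times in the Msx1-high littermates. The summed level of the 3 AP-2 genes was 1.00, 0.895 and 1.04 times the littermate level, with no common direction. Epithelial markers, the other tissue in which Tfap2c is active, summed to 0.859, 0.973 and 1.07 times the level of the Msx1-high littermate. The epithelial sum was lower in the Msx1-low library in litters 1 and 2 and higher in litter 3. Of the 10 epithelial markers, 2 were lower and 1 was higher in the Msx1-low library of all 3 litters. The part of epithelium in the Tfap2c values was not tested.

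Upstream windows of 250 bases before a RefSeq transcript start (GRCm38.p6) were found for 6 of the 9 genes, Tfap2a, Tfap2b, Twist1, Twist2, Snai1 and Zeb2, with 10 windows in all. The letters TAATTG, a core bound by Msx-type homeodomains, were searched on both strands. They occur in 1 window each of Tfap2a, Tfap2b and Zeb2, and in 7.17% of the 32851 windows of this length. These 3 windows are shown because they hold that core, written in capitals as it reads on the gene's strand. A second capital stretch in Tfap2b is an E-box (CANNTG). All are written 5′ to 3′ on the gene's strand.
Tfap2a, chr13:40734921-40735170, minus strand: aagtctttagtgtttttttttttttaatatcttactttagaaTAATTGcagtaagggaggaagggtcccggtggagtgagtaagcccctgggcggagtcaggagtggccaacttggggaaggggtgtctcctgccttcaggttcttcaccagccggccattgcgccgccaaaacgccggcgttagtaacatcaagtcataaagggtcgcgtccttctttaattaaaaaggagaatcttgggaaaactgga
Tfap2b, chr1:19211804-19212053, plus strand: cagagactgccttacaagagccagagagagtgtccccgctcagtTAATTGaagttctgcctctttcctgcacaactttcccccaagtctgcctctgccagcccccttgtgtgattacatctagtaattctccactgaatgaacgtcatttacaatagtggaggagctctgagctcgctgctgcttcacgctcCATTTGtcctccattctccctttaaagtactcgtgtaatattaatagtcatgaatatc
Zeb2, chr2:45117443-45117692, minus strand: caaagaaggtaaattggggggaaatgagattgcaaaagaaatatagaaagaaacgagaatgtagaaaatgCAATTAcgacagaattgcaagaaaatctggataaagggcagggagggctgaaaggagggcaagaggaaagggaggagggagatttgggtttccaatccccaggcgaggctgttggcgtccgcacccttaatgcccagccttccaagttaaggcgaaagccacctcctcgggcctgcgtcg
The core begins 208 bases before the start in Tfap2a, 206 bases before it in Tfap2b and 180 bases before it in Zeb2. Of these genes only Tfap2b had the same direction in all 3 litters. A match of letters does not show binding.

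Both Twist genes were higher in the Msx1-low library of every litter. Twist1, required in mouse crest for survival and mesenchymal fate, was at 187, 182 and 180.1 TPM in the Msx1-low libraries of litters 1, 2 and 3, against 177, 175 and 157 TPM in the Msx1-high littermates. All Msx1-low values were above all Msx1-high values, but by only 1.06-fold, 1.04-fold and 1.15-fold within litters. Twist2, a close relative of Twist1 known from dermis and bone precursors, was at 63.3, 54.2 and 66.0 TPM in the Msx1-low libraries, against 51.6, 52.0 and 54.9 TPM in the Msx1-high littermates. The fold was 1.23 and 1.203 in litters 1 and 3 and 1.04 in litter 2, and the ranges overlapped. Twist1 exceeded Twist2 between 2.73-fold and 3.44-fold in the 6 libraries.

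The Snail genes differed from each other. Snai1, a direct repressor of Cdh1 in cell lines and needed for mouse gastrulation, was at 20.7, 16.5 and 15.8 TPM in the Msx1-low libraries of litters 1, 2 and 3, against 24.3, 18.7 and 19.0 TPM in the Msx1-high littermates. It was lower in the Msx1-low library of every litter, at 0.851, 0.879 and 0.833 times its littermate, while the ranges overlapped because both libraries of litter 1 were high. Snai2, the Slug gene of migratory crest, was at 40.4, 47.8 and 57.3 TPM in the Msx1-low libraries, against 55.6, 46.0 and 42.4 TPM in the Msx1-high littermates. Its direction turned between litters, with ratios of 0.727, 1.04 and 1.35. Snai2 was the more abundant of the pair in every library, by 1.95-fold to 3.62-fold.

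The windows of Snai1 and Twist2 are shown because they hold letters of the families' own motifs. In Snai1 the capitals mark CACCTG, the reverse complement of the Snail-type E-box CAGGTG, 126 bases before the start, and GCCATTGGC, a match to the AP-2 letters GCCNNNGGC, 87 bases before it. In Twist2 the capitals mark the AP-2 match GCCCCTGGC, 80 bases before the start. Zeb2 also held an AP-2 match, GCCAAAGGC, in both of 2 overlapping windows of other transcript starts, 81 and 107 bases before them, which are not shown.
Snai1, chr2:167537945-167538194, plus strand: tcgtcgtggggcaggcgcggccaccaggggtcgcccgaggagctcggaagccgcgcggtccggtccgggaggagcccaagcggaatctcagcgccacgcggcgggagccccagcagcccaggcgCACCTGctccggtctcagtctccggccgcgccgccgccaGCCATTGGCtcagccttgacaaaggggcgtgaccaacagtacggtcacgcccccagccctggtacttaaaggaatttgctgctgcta
Twist2, chr1:91801211-91801460, plus strand: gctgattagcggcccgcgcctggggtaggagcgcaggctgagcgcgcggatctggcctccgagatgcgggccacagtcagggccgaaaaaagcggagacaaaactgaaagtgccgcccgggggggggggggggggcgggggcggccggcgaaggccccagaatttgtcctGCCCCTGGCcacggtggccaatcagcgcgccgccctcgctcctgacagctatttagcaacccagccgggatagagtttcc
CAGGTG on either strand occurs in 17.2% of the 32851 windows, CANNTG in 66.2% and GCCNNNGGC in 13.7%. CAGGTG is itself one form of CANNTG. The Twist1 window held none of the motifs searched.

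The Zeb genes also went different ways. Zeb1, a zinc-finger and homeodomain repressor of epithelial genes, was at 15.2, 14.4 and 19.9 TPM in the Msx1-low libraries of litters 1, 2 and 3, against 14.3, 12.9 and 17.3 TPM in the Msx1-high littermates. It was higher in the Msx1-low library of every litter, by 1.06-fold, 1.12-fold and 1.15-fold, but both litter 3 libraries stood above the others and the ranges overlapped. Zeb2, needed for crest migration in the mouse and mutated in human Mowat-Wilson syndrome, was at 11.9, 12.1 and 13.2 TPM in the Msx1-low libraries, against 15.3, 15.0 and 12.2 TPM in the Msx1-high littermates. Zeb2 was at 0.776 and 0.803 times its littermate in litters 1 and 2 and at 1.08 times in litter 3. Tfap2a, Twist2, Zeb1 and Zeb2 overlap annotated genes on the opposite strand, and whether the authors' quantification used strand is not given in the sources used here.

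**Figure D2:**
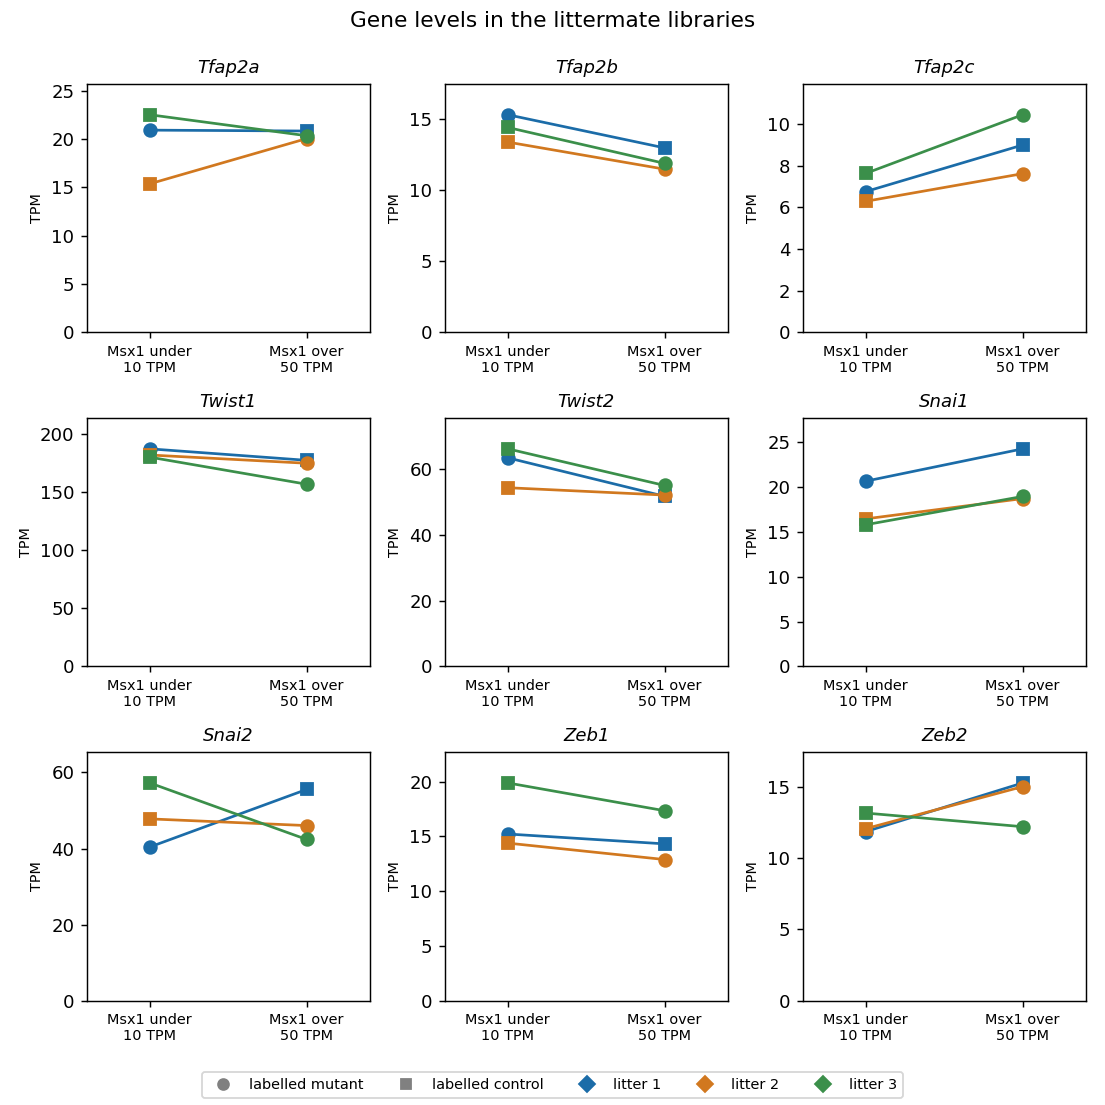
TPM of each gene in the Msx1-low library (left) and its Msx1-high littermate (right), each axis starting at 0. Lines join littermates, colours are litters, circles are labelled mutant and squares labelled control. Lines slope the same way in all litters for 6 genes, and cross for Snai2, where the litter 1 pair stands at 40.4 and 55.6 TPM and the litter 3 pair at 57.3 and 42.4 TPM.

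Counted by direction alone, 6 of the 9 genes went the same way in all 3 litters, against 22.7% of all 12152 tested genes. Of the 6, Tfap2b, Twist1, Twist2 and Zeb1 (4 genes) were higher in the Msx1-low library and Tfap2c and Snai1 (2 genes) lower. The tested genes as a whole divided into 1314 higher and 1443 lower in all 3 litters. The 9 genes were chosen with earlier results of these libraries known, so no test of their share is given. Of the 9 genes, only Tfap2c differed by at least 1.2-fold in every litter, a size that 1.46% of tested genes reached in that direction and 1.56% in the other. Tfap2b and Twist1 were the genes whose Msx1-low and Msx1-high values did not overlap, and 4.36% of tested genes were higher and 4.95% lower without overlap. The median difference of all tested genes was -0.09, 0.01 and 0.08 on the log2(TPM + 1) scale in litters 1, 2 and 3. The median of the 9 genes was 0.01, 0.05 and 0.19 on that scale. Scaling each library to a common median ratio left the direction of each of the 6 genes in each litter as it was.

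**Figure D3:**
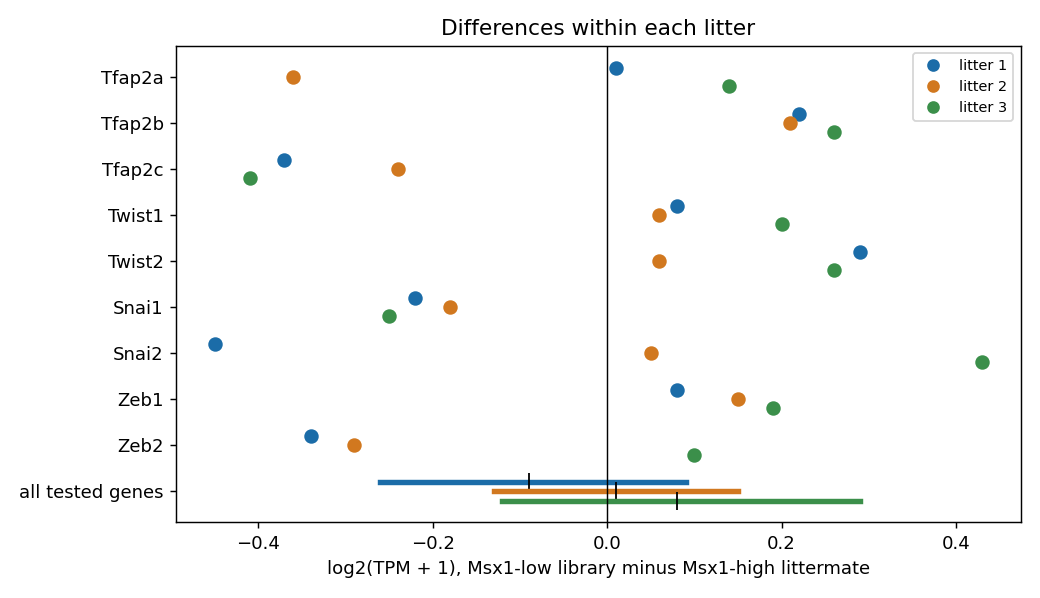
Difference in log2(TPM + 1) between the Msx1-low library and its Msx1-high littermate, 1 point per litter. The lowest entry gives the middle 50 percent of all tested genes per litter as bars, with the median as a tick. Tfap2c lies between -0.41 and -0.24 and Tfap2b between 0.21 and 0.26, while Snai2 ranges from -0.45 to 0.43.

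In the authors' deposited table none of the 9 genes passed an adjusted p of 0.05, and none had an unadjusted p under 0.05. The table does not name its direction, and Msx1 is negative in it, at -5.19 ± 0.26 (log2 fold change and standard error), so a positive value means higher where Msx1 is lower. With Msx1 as it was in the labelled libraries, the table's split of the libraries is not that of the labels, and its values and those of the labelled comparison are not 2 estimates of the same difference. The authors' deposited table adjusted p for 14572 genes, of which 14 (0.0961%) passed that threshold, and 1.85% of genes with a p had an unadjusted p under 0.05. Tfap2b had the smallest p of the 9, with a log2 fold change of 0.25 ± 0.17 (unadjusted p = 0.135) in the authors' deposited table. Tfap2c had the widest fold change, at -0.38 ± 0.29 (unadjusted p = 0.186) in the authors' deposited table. Twist2, Zeb1 and Twist1 were at 0.21 ± 0.18, 0.15 ± 0.16 and 0.11 ± 0.13, and Snai1, Zeb2, Tfap2a and Snai2 at -0.23 ± 0.28, -0.19 ± 0.17, -0.08 ± 0.21 and 0.01 ± 0.16, in the authors' deposited table. The median over the 9 genes was 0.01, and 0.003 over all genes with an adjusted p. The libraries that the authors fitted are not stated. The table was deposited with the same 6 libraries that gave the littermate values, so it is not taken as separate evidence.

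Between the groups as labelled, none of the 9 genes was called, and Snai2 came closest. Of 12152 genes tested with limma, 0% were called higher and 0% lower under the mutant label once p was adjusted (threshold 0.05). At an unadjusted p under 0.05 limma gave 231 higher genes (1.90%) and 586 lower genes (4.82%), a split that became 410 and 305 after scaling to a common median ratio. Snai2 averaged 42.9 ± 2.86 TPM in the libraries labelled mutant and 53.5 ± 5.04 TPM in those labelled control (SD, n = 3 each). Under the mutant label Snai2 was at 40.4, 46.0 and 42.4 TPM in litters 1, 2 and 3, against 55.6, 47.8 and 57.3 TPM under the control label. The labelled groups of Snai2 did not overlap, and 10.4% of tested genes were lower without overlap in the mutant label. The log2 difference was -0.31 ± 0.10 (SE; limma unadjusted p = 0.0137, adjusted p = 0.686), lower in the mutant label in 3 of 3 litters. Over the alternatives run the adjusted p of Snai2 lay between 0.354 and 0.926.

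The other 8 genes differed by less than 0.1 log2 units between the labelled groups, with limma adjusted p between 0.886 and 0.986. Tfap2c, at 0.09 ± 0.19 (SE), and Tfap2a, at 0.08 ± 0.14, had the widest positive differences. Zeb1 and Tfap2b, at -0.08 ± 0.16 and -0.08 ± 0.13, had the widest negative ones after Snai2. Twist1 was at -0.06 ± 0.08, with 173 ± 15.3 TPM in the libraries labelled mutant and 179.8 ± 2.31 TPM in those labelled control (SD, n = 3 each). In all, 3 of the 9 differences were positive and 6 negative, with a median of -0.05 log2 units, against a median of -0.06 over all tested genes. The SE of the 9 differences lay between 0.08 and 0.19 log2 units.

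**Figure D4:**
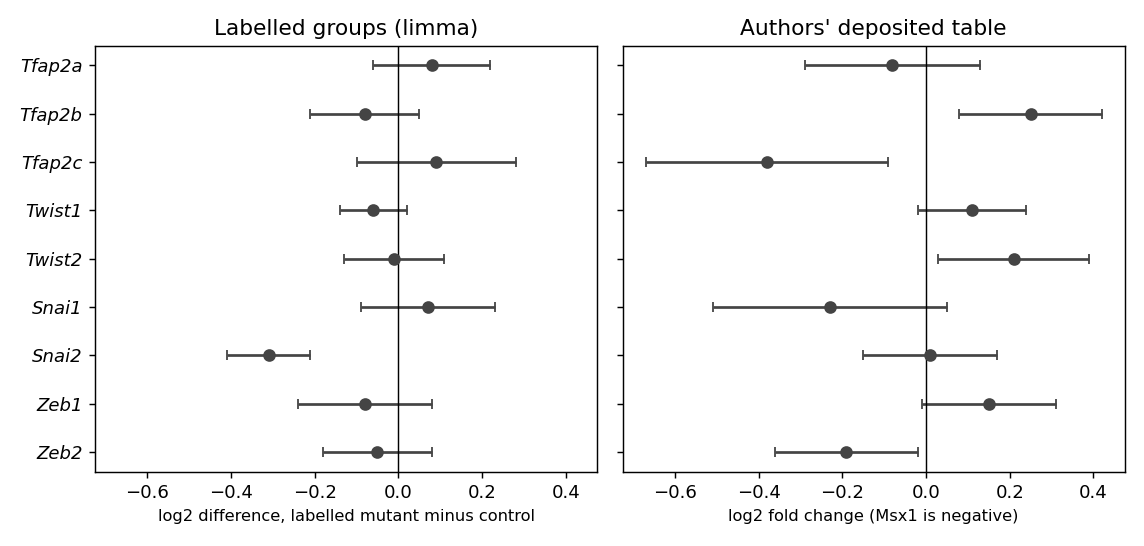
Log2 difference of the 9 genes between labelled groups from limma (left, labelled mutant minus control, bars are SE, n = 3 each) and log2 fold change in the authors' deposited table (right, bars are the table's standard error). The sides do not divide the libraries alike, since Msx1 is at -5.19 in the table but goes against the labels in litters 2 and 3. Snai2 is at -0.31 on the left and at 0.01 on the right, and Tfap2c at 0.09 and -0.38.

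Genes that work with these factors were read from fixed lists, and none was called in either comparison. The lists are to be read beside all 12152 tested genes, whose median difference between the labels was -0.06 log2 units. Of these, 1314 were higher and 1443 lower in the Msx1-low library of all 3 litters, together 22.7%. AP-2 cofactors and inhibitors had 5 of 7 genes tested, with 2 positive and 3 negative between the labels and a median of -0.06 log2 units. Cited1, a transcriptional coactivator gene of the Cited family, was the most abundant, at 146 to 202 TPM. Kctd1, which encodes a repressor of AP-2 activity, was at 20.7, 24.1 and 26.2 TPM in litters 1, 2 and 3 under the mutant label, against 28.7, 28.7 and 36.9 TPM under the control label. The labelled groups of Kctd1 did not overlap, and 10.4% of tested genes were lower without overlap in the mutant label. The log2 difference of Kctd1 was -0.39 ± 0.13 (SE; limma unadjusted p = 0.0188, adjusted p = 0.686). Its relative Kctd15, an AP-2 inhibitor of crest formation known from zebrafish, was at -0.08 ± 0.10, and Cited2, a coactivator gene for AP-2 proteins, at -0.06 ± 0.11. Cited1 and Kctd15 were the 2 of the 5 tested genes that were higher in the Msx1-low library of all 3 litters, though Kctd15 by only 0.00, 0.10 and 0.15 on the log2(TPM + 1) scale, the first value being above 0 before rounding. The authors' deposited table gave positive signs to 4 of 5 genes of this list; their median was 0.10, and Cited4 was at 0.67 ± 0.72.

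Of the dimer partners of Twist and the Id genes, whose proteins sequester E proteins, 8 of 9 were tested between the labels, with 3 positive and 5 negative. Tcf12, an E protein gene at 214 to 268 TPM, had the smallest p, at -0.16 ± 0.09 (SE; limma adjusted p = 0.729). The authors' deposited table gave negative signs to 6 of 9, with a median of -0.22 and Id2 at -0.33 ± 0.15 (unadjusted p = 0.0288). Id1, Id2 and Id3 were the 3 genes of this list that were lower in the Msx1-low library of all 3 litters. Tcf4, an E protein gene, was the one that was higher in all 3, by 0.04, 0.06 and 0.17 on the log2(TPM + 1) scale. Hand1, whose protein can pair with Twist1, was at 40.5, 49.2 and 73.6 TPM in the Msx1-low libraries, against 68.9, 64.3 and 66.2 TPM in the Msx1-high littermates, lower in 2 of 3 litters.

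Corepressors and degradation factors of Snail and Zeb proteins had 13 of 16 genes tested, with 4 positive and 9 negative between the labels. Their median was -0.10 log2 units, against -0.06 over all tested genes. Gsk3b, the kinase that marks Snail protein for destruction, was at -0.23 ± 0.09 (SE; limma unadjusted p = 0.0409, adjusted p = 0.719), and Ctbp2, a corepressor bound by Zeb proteins, at -0.21 ± 0.09 (limma adjusted p = 0.726). Ezh2, the Polycomb methyltransferase gene, was at -0.16 ± 0.08. Of the 13, the authors' deposited table had 6 positive, with a median of -0.03, and Ctbp1, the relative of Ctbp2, at 0.18 ± 0.17. Sin3a and Kdm1a, genes of chromatin corepressors, were the 2 of the 13 tested genes that were lower in the Msx1-low library of all 3 litters. Over the whole set, 1443 of 12152 tested genes were lower in this way.

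The target class of Snail and Zeb repression was mixed. Of 24 epithelial genes, 20 were tested between the labels, with 9 positive and 11 negative and a median of -0.07 log2 units. Cdh1 was at 15.3 to 17.4 TPM in the 6 libraries and differed between littermates by 0.04, -0.11 and 0.06 on the log2(TPM + 1) scale. Krt14, a keratin gene of basal epithelium, had the smallest limma p of the list between the labels and was at 5.30, 4.17 and 4.43 TPM in litters 1, 2 and 3 under the mutant label, against 1.25, 1.68 and 2.24 TPM under the control label. It was higher under the mutant label in every litter and the groups did not overlap, as for 2.73% of tested genes in that direction, with a log2 difference of 1.06 ± 0.19 (SE; limma unadjusted p = 0.000494, adjusted p = 0.489). Krt14 was at -0.17 ± 0.76 in the authors' deposited table. Epcam, an epithelial adhesion gene, was at 16.8, 17.5 and 18.2 TPM in the libraries labelled mutant, against 21.5, 22.2 and 20.9 TPM in those labelled control (log2 difference -0.29 ± 0.09, SE; limma unadjusted p = 0.0124, adjusted p = 0.686). Cldn7, a tight-junction gene, was at -0.36 ± 0.10 (limma unadjusted p = 0.00563, adjusted p = 0.669). In Epcam and Cldn7 the labelled mutant libraries were lower in every litter, opposite to Krt14. The authors' deposited table held all 24, with 12 positive and 12 negative and a median of 0.01. Grhl2, an epithelial factor gene that opposes Zeb1, was at only 3.26 to 6.03 TPM and was lower in the Msx1-low library of all 3 litters. Its differences were -0.57, -0.41 and -0.27 on the log2(TPM + 1) scale. Grhl2 was at -0.51 ± 0.32 in the authors' deposited table (unadjusted p = 0.110). Cdh3 and Esrp1 were lower in all 3 litters too, and Krt5 was higher in all 3, while 22.7% of all tested genes kept 1 direction.

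Mesenchyme genes, 16 of 16 tested, had 3 positive and 13 negative differences between the labels. Their median was -0.12 log2 units, against -0.06 over all tested genes. The authors' deposited table, which follows Msx1 and not the labels, had 11 positive and 5 negative. Their median there was 0.02, against 0.003 over all genes with an adjusted p. Pdgfra, a growth factor receptor gene of crest mesenchyme, had the smallest limma p of the list, at -0.17 ± 0.09 (SE; limma adjusted p = 0.727) between the labels, followed by Sparc, a matrix protein gene, at -0.22 ± 0.14 and Cdh2, the N-cadherin gene, at -0.14 ± 0.09. Col1a2, a collagen gene, had the smallest p in the authors' table, at 0.25 ± 0.11 (unadjusted p = 0.0242 in the authors' deposited table), and was higher in the Msx1-low library of all 3 litters, as were Prrx2 and Tnc. Prrx1 and Col3a1 were lower in all 3. Of 14 neural crest specifier genes, 8 were tested, with 6 positive and 2 negative between the labels and a median of 0.05 log2 units. The specifier genes that were not tested, Foxd3, Pax7, Zic1, Zic2, Zic5 and Sox10, did not exceed 0.759 TPM. Among the tested ones, Ednrb was at 0.862 to 1.46 TPM, Erbb3 at 1.86 to 2.53 TPM and Ets1 at 6.79 to 8.44 TPM. Sox9 was at 25.6 to 32.2 TPM and Mycn at 40.3 to 63.9 TPM. Pax3 was at 1.31, 1.28 and 1.27 TPM in the Msx1-low libraries of litters 1, 2 and 3, against 2.69, 2.56 and 1.74 TPM in the Msx1-high littermates. Sox8, a SoxE gene at only 2.05 to 4.91 TPM, was also lower in the Msx1-low library of all 3 litters. Its differences were -0.17, -0.15 and -0.96 on the log2(TPM + 1) scale, the last from 2.05 against 4.91 TPM. Myc was higher in all 3 litters, with differences of 0.44, 0.10 and 0.06 on that scale. In the authors' deposited table Pax3 was at -0.84 ± 0.46 (unadjusted p = 0.0685), and 5 of 9 specifier genes were positive.

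The genes whose profile over the 6 libraries was nearest to each member were found by root mean square distance between log2(TPM + 1) values centred on each gene's mean, among 8667 protein-coding genes. The distances were 0.011 for Twist1 and Dlat, 0.027 for Tfap2a and Mthfd1, 0.031 for Twist2 and Gaa, 0.037 for Zeb2 and Gpd2, 0.038 for Snai2 and Ccdc66, and 0.039 for Tfap2b and Sphk2. They were wider for Zeb1 and Polr1e (0.042), Snai1 and Grk4 (0.050), and Tfap2c and Mafg (0.070). The next nearest were Haus7 for Twist1, Agpat4 for Tfap2a, Spg21 for Twist2, Prpf3 for Zeb2, Prcp for Snai2, Usp3 for Tfap2b, Pcif1 for Zeb1, Dcp1a for Snai1 and Nf2 for Tfap2c, at 0.017 to 0.073. None of the 9 genes was among the 2 nearest of another. With 8667 genes searched, this says little on whether the 9 vary together. The distances are not scaled to a gene's spread, so a steady gene such as Twist1 can have a short distance.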

How the data were processed

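The authors deposited 1 TPM value per gene and library, and 1 comparison table. Per the file headers, that table gives for every gene a base mean signal, the log2 fold change and standard error, a test score, and p-values before and after adjustment. Salmon 1.5.2 and DESeq2 are named, with build mm10, in the submitters' processing notes, which give no roles or settings. TPM keep no depth, so no counting interval is given. The expression values given here were read or computed from these files. The labelled comparison took its groups from the labels, and the littermate differences took the Msx1-low and Msx1-high library of each litter. The direction of the authors' table was read from Msx1.

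The labelled groups were compared with limma 3.58.1 in R 4.3.3 (trend and robust moderation, no block) on log2(TPM + 1), for genes reaching 1 TPM in 3 or more of the 6 libraries, with Benjamini-Hochberg adjustment over all 12152 genes and a threshold of 0.05. A fold change on this scale understates low genes. P-values rest on 3 embryos per label. With 3 libraries a side, exact permutation (two-sided) cannot give a p below 0.1, so none was used. The design text pairs the libraries by litter, and same-litter deviations from the label means had Pearson r of -0.0545, -0.0279 and -0.0257 over genes.

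The 9 genes and the lists were chosen with earlier results of these data known. Genes named from lists are the up to 3 with the smallest p in each comparison. Also named are list genes at 0, at the extremes of level, or in 1 direction in all litters. Ets1, Erbb3 and Ednrb are named for their levels. All but the genes with the smallest p were picked after their values were seen. Profile neighbours were sought among protein-coding genes with a mean of at least 5 TPM. Gene positions and overlaps come from the GENCODE annotation of GRCm38, and windows from RefSeq. The alternatives tried are in the closing section.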

Additional observations from a re-analysis of the deposited data

How the results depend on the processing

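The 0 genes called higher, 0 called lower and 0 of the 9 genes called between the labels held with pseudocounts of 0.1 and 0.5, no filter, a mean of at least 5 TPM, median-ratio and quantile scaling and moderation without trend. The replicate block (litter as a paired term) also gave 0, 0 and 0 and changed no call. Leaving out 1 library at a time gave 0 to 1 gene higher and 0 to 1 lower, and 0 of the 9.

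Leaving out 1 library moved the labelled log2 difference of Snai2 between -0.39 and -0.26, of Tfap2a between -0.08 and 0.18, of Tfap2b between -0.20 and -0.01, of Tfap2c between -0.07 and 0.21, of Twist1 between -0.12 and 0.01, of Twist2 between -0.09 and 0.09, of Snai1 between -0.04 and 0.25, of Zeb1 between -0.18 and 0.06 and of Zeb2 between -0.15 and 0.04. Signs also turned under median-ratio scaling for Twist1 (0.01), Twist2 (0.06) and Zeb2 (0.02), and under quantile normalization for Twist2 (0.05) and Zeb2 (0.01). The cause was not tested, and none of these values was past the threshold.

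The littermate counts of 4 genes higher and 2 lower were the same with a pseudocount of 0.1 and both scalings. A required difference of 1.2-fold in every litter left 0 higher and 1 lower (Tfap2c), fewer by construction. Leaving out 1 litter gave 4 to 5 higher and 2 to 3 lower. The count of 0 of the 9 genes in the authors' deposited table held at an adjusted p of 0.1 and an unadjusted p of 0.05. Depth is unknown, which limits most the genes with the lowest base means, Tfap2c and Snai1 among the 9.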
